A study of Homo sapiens with 17 samples.

Results

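The *HOXC* cluster is the group of 9 homeobox genes, *HOXC13*, *HOXC12*, *HOXC11*, *HOXC10*, *HOXC9*, *HOXC8*, *HOXC6*, *HOXC5* and *HOXC4*, at chr12:53931477-54054725 (GRCh38), a stretch of 123 kb that holds 21 *Hin*dIII fragments. All 9 genes are transcribed from the + strand, and *HOXC13* lies nearest to the centromere. The cluster's fragments were taken by position, and a fragment was tied to a gene when a GENCODE transcript of that gene starts on it. Of the 21 fragments 9 were baited (captured as promoter fragments), of 15982 baited fragments in the interaction lists. A *HOXC* gene starts on 8 of the 9 baits, and on the ninth only the microRNA gene *MIR196A2* starts. Both cell types came from WA09/H9 NK2, 1 established line of human embryonic stem cells. Naive PSCs were grown in t2iL + PKCi medium on Matrigel and primed PSCs in TeSR-E8 medium on vitronectin. Promoter Capture Hi-C (PCHi-C), which sequences ligated pairs of *Hin*dIII fragments of which at least one is a baited promoter, gave 1 list of interactions per cell type from 2 combined replicates. Hi-C, the same assay without capture, had 1 library per cell type. H3K4me1, a histone mark found at enhancers and around promoters, came from CUT&RUN, with 2 libraries of naive and 3 of primed PSCs.

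Homeobox genes of the *HOX* clusters encode transcription factors that give cells their position along the head-to-tail axis of the embryo, and their order on the chromosome follows the order in which they are used along that axis. *HOXC4*, *HOXC5* and *HOXC6* act furthest towards the head, *HOXC8* and *HOXC9* in the trunk, and *HOXC10* to *HOXC13* towards the tail and in the hindlimb, with *HOXC13* also needed for hair and nails. In primed pluripotent cells the clusters are known to be silent and bound by Polycomb repressive complexes, and large domains bound by Polycomb are known to contact each other. In naive PSCs the authors reported lower levels of H3K27me3, a histone mark associated with Polycomb, at gene promoters. The cluster also holds non-coding genes, among them *HOTAIR*, an antisense RNA between *HOXC12* and *HOXC11*, and 2 microRNA genes, *MIR196A2* and *MIR615*. Their main mature strands are shown in the RefSeq spelling with the seed, bases 2 to 8, in capitals, because *MIR196A2* gives one bait its only name and *MIR615* shares a bait with *HOXC4*, *HOXC5* and *HOXC6*.
hsa-miR-196a-5p: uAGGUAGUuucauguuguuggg
hsa-miR-615-3p: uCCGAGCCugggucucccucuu
The 2 seeds differ, so these microRNAs belong to separate seed families.

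The sequences below come from regions named in the results that follow and were read from GRCh38 on the + strand, with each CpG in capitals. Each is a part of a longer tile or fragment, and the result belongs to the whole of it. The first is from the 500 bp tile with the largest H3K4me1 change towards primed PSCs, chr12:54051101-54051400, in an intron of *HOXC4*.
primed-higher tile: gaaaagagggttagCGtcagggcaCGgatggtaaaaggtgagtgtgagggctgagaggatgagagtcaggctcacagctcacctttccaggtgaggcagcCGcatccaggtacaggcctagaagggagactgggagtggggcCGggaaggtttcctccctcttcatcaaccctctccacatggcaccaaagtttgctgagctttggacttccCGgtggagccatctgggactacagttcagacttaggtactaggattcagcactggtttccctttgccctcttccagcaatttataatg
The next is the middle of the partner with which *HOXC13* had its highest score in primed PSCs, chr12:53765107-53765406, on the centromeric side of the cluster and in no named gene.
HOXC13 partner: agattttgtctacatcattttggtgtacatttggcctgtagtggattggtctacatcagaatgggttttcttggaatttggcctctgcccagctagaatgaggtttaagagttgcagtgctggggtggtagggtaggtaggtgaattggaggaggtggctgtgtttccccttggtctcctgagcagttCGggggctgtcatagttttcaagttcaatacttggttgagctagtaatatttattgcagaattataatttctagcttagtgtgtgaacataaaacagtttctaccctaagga
The last is the middle of the partner with the highest score of the whole cluster, chr12:54193241-54193540, on the telomeric side and also in no named gene.
HOXC9 partner: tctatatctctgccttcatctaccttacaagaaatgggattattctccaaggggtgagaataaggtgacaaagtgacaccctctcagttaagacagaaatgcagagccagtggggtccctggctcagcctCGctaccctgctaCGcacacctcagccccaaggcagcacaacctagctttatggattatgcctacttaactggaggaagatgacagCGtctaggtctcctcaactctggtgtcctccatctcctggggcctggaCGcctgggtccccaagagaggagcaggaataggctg
These windows of 300 bases held 5, 1 and 4 CpGs, in that order. The median of 35116 RefSeq promoter windows (GRCh38) of the same length was 14. The cluster as a whole held 28.8 CpGs per kb against 9.88 over chromosome 12, and its G+C content was 52.5% against 40.8%. The letters TGATTNAT, a paired HOX and *PBX* motif, were found on neither strand of any of the 3 windows. Only 2.82% of the promoter windows held them, so 3 windows are too few to show a lack of the motif.

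The depth of the data differed between libraries. The naive list held 79330 interactions and the primed list 88985, each with a CHiCAGO score of at least 5, a score that states how far the reads of a pair exceed those expected at its distance. Since the replicates were combined, no difference between the lists has a replicate check, and the intervals given cover counting error only. The Hi-C files held 31310648 contacts in naive and 52056105 in primed PSCs. The H3K4me1 values implied between 6740000 and 26600000 reads per library, and a tile of the cluster held a median of 4 to 13 reads. Of 8 markers of naive PSCs, 5 had more H3K4me1 around their start in both naive libraries than in every primed one and 1 had less. Of 8 markers of primed PSCs, 2 had more in every primed library and 4 less, so that list did not separate the cell types in the direction of its name. Of 6 markers of mesenchymal cells, 4 were higher in every primed library, with list means from -1.42 to -0.852 log2 RPM (reads scaled to library size) in primed and from -2.23 to -1.76 in naive PSCs. The part of other cells in the H3K4me1 results was not tested.

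The question of the PCHi-C comparison was how the promoters of the cluster are wired in each pluripotent state. The 8 baits with a *HOXC* start had 170 interactions in naive and 150 in primed PSCs, a ratio of 0.882 (95% interval 0.704 to 1.11), which includes 1. With at least 10 reads per interaction the numbers were 166 and 129, a ratio of 0.777 (0.613 to 0.984). This read limit was not scaled to the depth of the lists. Both intervals count each pair as independent, while runs of adjacent fragments were listed with neighbouring baits. They are therefore likely too narrow, and no difference in number is concluded from them. With all 21 fragments the numbers were 212 and 179. Of the interactions of the 8 baits, 77 were listed in both cell types, which is 45.3% of the naive and 51.3% of the primed ones. Over the whole lists 49.6% (naive) and 44.2% (primed) were shared, so the cluster was near the background. Both ends lay inside the cluster for 1 naive interaction of 212 (0.472%) and for 43 primed interactions of 179 (24.0%). Over the whole lists the share of interactions no longer than the cluster went the other way, 21.1% in naive and 14.9% in primed PSCs. On the centromeric side of the cluster there were 103 naive and 54 primed interactions, of which 35 were shared. On the telomeric side there were 108 and 72, of which 58 were shared. Over 1 Mb there were 0 naive and 10 primed interactions (5.59% of the primed ones), beside 1.68% and 6.73% of the whole lists, so the primed share was not above the background. No *HOXC* fragment had an interaction with another chromosome in either list.

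**Figure D1:**
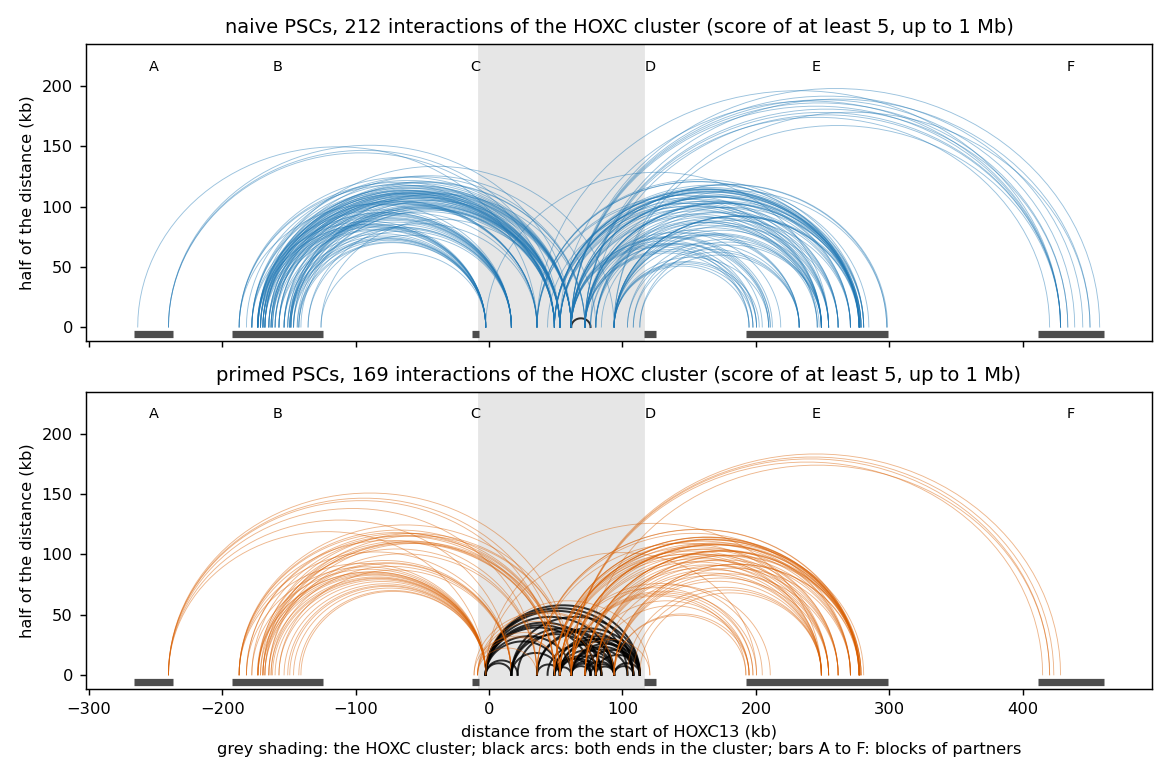
Interactions of the *HOXC* cluster up to 1 Mb in naive (top) and primed PSCs (bottom), each arc joining the middles of 2 fragments, drawn by the distance in kb from the start of *HOXC13*. The arcs inside the grey cluster (black) number 1 in naive and 43 in primed PSCs, while the arcs to blocks B and E on either side are denser in naive PSCs.

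Inside the cluster, the single naive interaction joined the bait of *HOXC9* to the neighbouring fragment with a start of *HOXC6*, 14.5 kb apart, with 172 reads and a score of 5.18. The same pair had 161 reads and a score of 10.74 in primed PSCs, so its reads were about the same in both. In primed PSCs 15 of the 36 possible pairs of baits were listed. *HOXC13*, at one end of the cluster, had 11 interactions inside it, with *HOXC12*, *MIR196A2*, *HOXC9*, the distal *HOXC4* start, the bait shared by *HOXC4*, *HOXC5* and *HOXC6*, and 6 unbaited fragments. The pair of *HOXC10* and *HOXC9* had the most reads, 276, with a score of 11.43. Distances ran from 12.6 to 115 kb with a median of 46.5 kb, and the longest had the highest score. That pair joined *HOXC13* to the last fragment of the cluster, chr12:54049003-54054725, which carries the most downstream start of *HOXC4*, with 45 reads and a score of 14.2. The same last fragment was listed with 9 of 9 baits in primed PSCs, with 22 to 80 reads and scores from 5.44 to 14.2, and with none of them in naive PSCs. Its neighbour, chr12:54044960-54049002, had 6 interactions inside the cluster in primed and 0 in naive PSCs.

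Along the cluster each gene had its own mixture of directions, and the bait at each end faced its own side. *HOXC13*, the gene nearest the centromere, had 18 naive and 35 primed interactions, of which 17 and 20 were centromeric and 1 and 3 telomeric. *HOXC12* had 18 and 12, all 18 naive ones centromeric, and in primed PSCs 7 centromeric and 5 inside the cluster. *HOXC11*, whose bait also holds a start of *HOTAIR*, had 14 and 13, with 8 centromeric and 6 telomeric in naive PSCs and 5 and 4 in primed PSCs. These 3 genes at the centromeric end had most of their naive contacts on the side of *CISTR*.

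*HOXC10*, whose bait also holds a distal start of *HOXC6* and of the antisense RNA *HOXC-AS3*, had 27 and 19 interactions, and its centromeric ones numbered 17 in naive and 6 in primed PSCs. *MIR196A2* had 31 and 28, with 21 and 8 centromeric and 10 and 10 telomeric. *HOXC9*, on the largest bait, which also carries a start of *HOXC6*, *HOXC-AS1* and *HOXC-AS2*, had 42 and 33. Its centromeric interactions numbered 16 in naive and 5 in primed PSCs and its telomeric ones 25 and 19. In the middle of the cluster both sides were thus contacted, and the centromeric number was lower in primed PSCs for each of these 3 baits.

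*HOXC8* had 25 and 12 interactions, 21 and 10 of them telomeric, and its 4 centromeric ones were listed in naive PSCs only. The distal start of *HOXC4* had 7 and 14, with 6 and 7 telomeric and 0 and 5 inside the cluster. The bait shared by *HOXC4*, *HOXC5* and *HOXC6* had 19 and 22, with 18 and 8 telomeric and 0 and 11 inside the cluster. A difference of at least 2 times with at least 5 interactions was met by 1 of the 9 baits towards primed PSCs, the distal *HOXC4* start, and by 1 towards naive PSCs, *HOXC8*. Over all 7685 baits that could be compared, 28.2% met it towards primed and 22.6% towards naive PSCs, so the cluster had no more such baits than the background. The summed contacts with both flanks were fewer in primed PSCs for 7 of the 9 baits, while those inside the cluster were more numerous for 9 of 9.

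**Figure D2:**
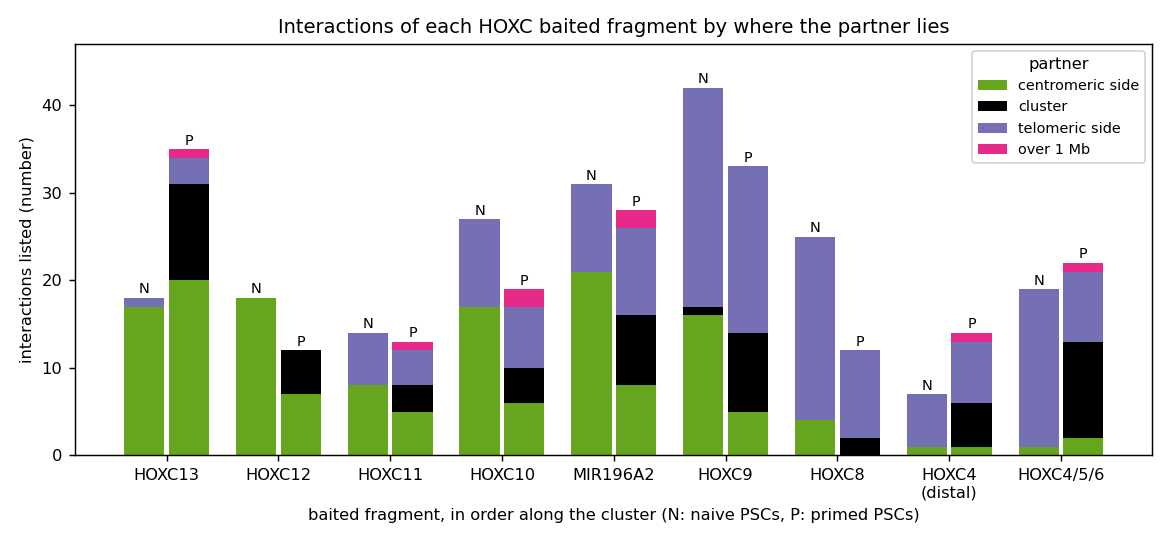
Number of interactions of each of the 9 baits, in order from *HOXC13* to *HOXC4*, in naive (N) and primed PSCs (P), stacked by where the partner lies. Partners inside the cluster (black) are present for 9 of 9 baits in primed PSCs and for *HOXC9* alone in naive PSCs, and centromeric partners give way to telomeric ones along the cluster.

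The partners outside the cluster numbered 65 fragments, of which 20 were listed in naive PSCs only, 9 in primed PSCs only and 36 in both. Those within 1 Mb fell into 6 blocks (A to F from the centromere) when neighbouring partners whose starts lay no more than 50 kb apart were joined. Block B, chr12:53746136-53814348, starts with *CISTR*, a long non-coding RNA gene described in cartilage formation, and held 99 naive and 41 primed interactions, 32 of them shared. *HOXC13* had 17 naive and 19 primed interactions with block B, so its numbers were close. *HOXC12* had 18 and 6, *HOXC10* had 16 and 5, *MIR196A2* had 20 and 5, and *HOXC9* had 15 and 3. Block B was thus contacted by all 9 baits in naive PSCs and by 6 in primed PSCs, and *HOXC13* alone gave 19 of the 41 primed ones. The highest score of *HOXC13* was with the fragment chr12:53764962-53765550 of this block, 20.08 in primed PSCs. The 4 partners of block B with the widest contact were each listed with 7 baits in naive PSCs and with 2 to 4 in primed PSCs.

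Block E, chr12:54131090-54237631, holds *LINC02381* and *SMUG1*, a DNA glycosylase that removes uracil, and had 94 naive and 65 primed interactions, 56 of them shared. The highest scores of the cluster lay here. *HOXC9* with chr12:54189297-54197483 had 86 reads and a score of 35.57 in naive PSCs, and 66 reads and a score of 39.65 in primed PSCs. *HOXC8* with the same fragment had 51 reads and a score of 28.59 in naive, and 37 reads and 22.85 in primed PSCs. *HOXC9* with the next fragment, chr12:54197484-54203585, had scores of 31.35 and 31.67. This pair of fragments, beyond the promoter end of *SMUG1*, which is read from the - strand, had the highest scores in both cell types and was listed with 8 and 6 cluster fragments in naive and with 7 and 6 in primed PSCs. *SMUG1* starts on 2 baits and on 1 unbaited fragment, and their numbers differed. The bait chr12:54186661-54189296 had 13 naive and 11 primed interactions with the cluster. The bait chr12:54158841-54183861 had 7 naive interactions, with scores up to 9.34, and 0 primed ones, and the unbaited fragment had 3 and 0.

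The smaller blocks had few interactions. Block A had 4 naive and 6 primed ones. Its fragment of *ATP5MC2*, a subunit of ATP synthase, had 1 naive and 0 primed ones. The others were with the bait chr12:53694832-53702268, on which no named gene starts, with 3 and 6. Block F, with *GPR84*, a receptor for medium-chain fatty acids, *ZNF385A*, a zinc finger protein, and *ITGA5*, an integrin subunit, had 14 and 5. The *GPR84* bait had 6 naive and 1 primed interactions with the cluster, and *ZNF385A* and *ITGA5* had interactions with it in naive PSCs only. Blocks C and D touch the cluster on its centromeric and telomeric edge, and had 0 and 7 and 0 and 2 interactions. Block D is the fragment of *FLJ12825*, a non-coding gene, and in primed PSCs it was listed with *HOXC13* and *HOXC9*. Contacts in the immediate neighbourhood of the cluster were therefore listed in primed PSCs only, as were nearly all contacts inside it. Of the 2 lists of genes in trans to the cluster, the other *HOX* genes and the *HOX* cofactors *PBX*, *MEIS* and *PKNOX*, no member was a listed partner of the cluster in either cell type.

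Interactions listed in both cell types had fewer reads in primed PSCs. Of 94 such interactions of the cluster 14 had more reads in primed PSCs, and the median log2 ratio of primed over naive reads was -0.55. Over all 39360 shared interactions 25895 had more reads in primed PSCs and the median was 0.21. On the centromeric side 11 of 35 had more reads in primed PSCs, and on the telomeric side 3 of 58. The median difference of their CHiCAGO scores, primed minus naive, was -0.28.

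**Figure D3:**
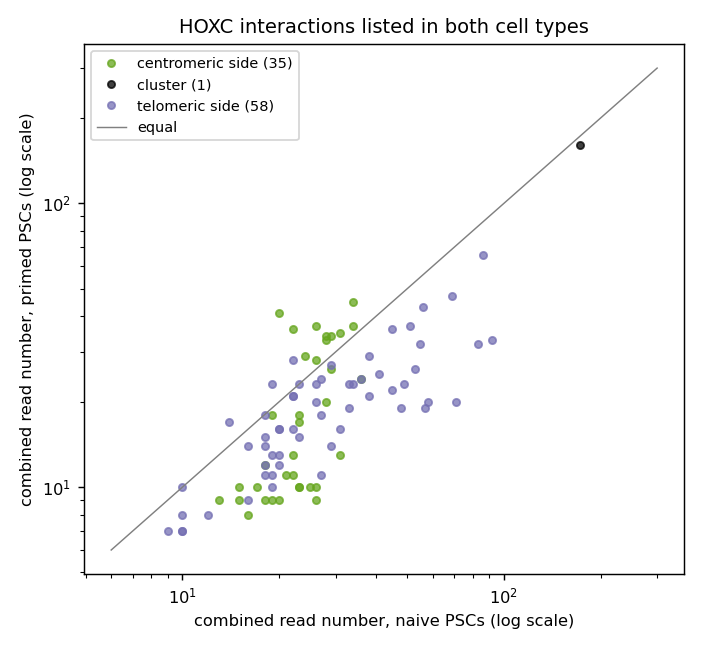
Combined read numbers of the 94 *HOXC* interactions listed in both cell types, naive against primed PSCs on log scales, coloured by the side of the cluster the partner lies on. Most points lie under the line of equal reads, and 14 lie above it.

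The long-range interactions of the cluster were all in primed PSCs and went to 2 developmental genes on the same chromosome. *TBX3*, a T-box transcription factor of limb and mammary development, was reached by 9 of them, and *LHX5*, a LIM homeobox factor of the forebrain, by 1, from *MIR196A2*. The distances were 59483 to 60747 kb. The *TBX3* bait, chr12:114681266-114685800, was listed with 8 fragments of the cluster, 6 of them baited: *HOXC13*, *HOXC11*, *HOXC10*, *MIR196A2*, the distal *HOXC4* start and the bait of *HOXC4*, *HOXC5* and *HOXC6*. The highest scores were those of *HOXC11*, 19.05, and *HOXC13*, 16.68, each from 5 reads. The others rested on 3 or 4 reads, and none of the 10 remained when at least 10 reads were required. *HOXC12*, *HOXC9* and *HOXC8* had no listed interaction over 1 Mb.

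Hi-C gave a second view of the same stretch, with 2 bins of 100 kb over the cluster and no replicate. The 2 *HOXC* bins, starting at 53900001 and 54000001, had 89 contacts with each other in naive and 142 in primed PSCs. Set against the mean of all listed chromosome 12 pairs at 100 kb, these were 0.247 (95% Poisson interval 0.198 to 0.304) and 0.333 (0.281 to 0.393), so the intervals overlapped. The contact of the first *HOXC* bin with the bin 200 kb away that holds most of block B was above the mean of its distance in both, 2.15 (1.94 to 2.38) and 2.09 (1.90 to 2.30). The second *HOXC* bin, from the end of *HOXC9* to *HOXC4*, had 120 and 67 contacts with the same bin, 1.04 (0.865 to 1.25) and 0.481 (0.372 to 0.610). On the telomeric side the first *HOXC* bin had 90 and 35 contacts with the bin starting at 54200001, 0.783 (0.630 to 0.962) and 0.251 (0.175 to 0.349). The second had 107 and 66 contacts with that bin, 0.629 (0.516 to 0.760) and 0.322 (0.249 to 0.410). Relative to the mean of their distance, these 3 contacts were lower in the primed library beyond counting error, while the intervals overlapped for the first bin with block B.

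**Figure D4:**
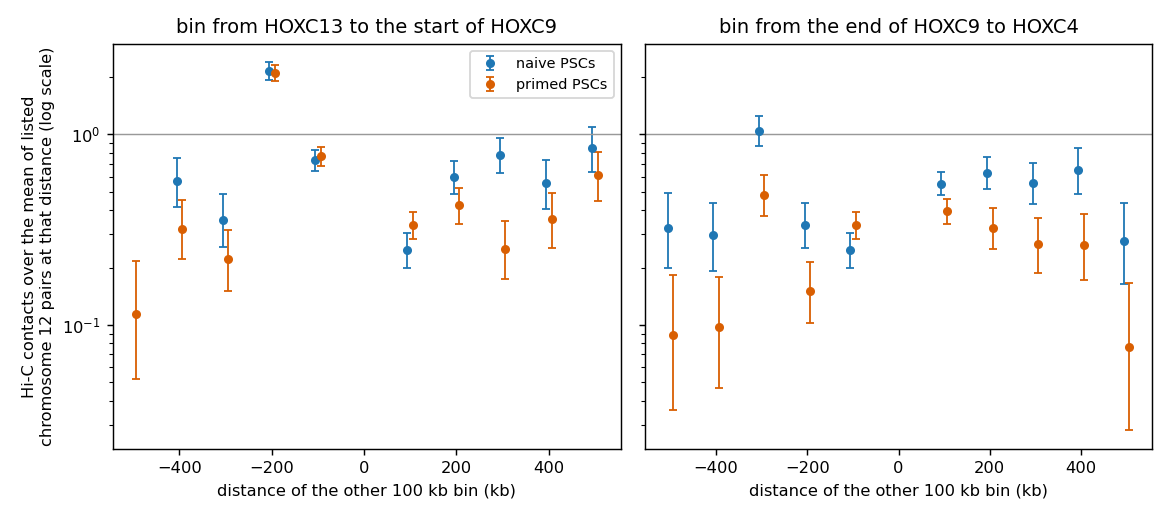
Hi-C contacts of the 2 *HOXC* bins with the bins up to 500 kb away, divided by the mean of the listed chromosome 12 pairs at that distance (log scale), with 95% Poisson intervals, for the single naive and primed libraries. The primed values lie under the naive ones at most distances, except between the *HOXC* bins and between the first *HOXC* bin and its centromeric neighbour.

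Between chromosomes, the 2 *HOXC* bins had 17 contacts with the bins of the other *HOX* clusters in the primed library and 2 in the naive one. The 17 were 14 with *HOXB* and 3 with *HOXA*, and both naive ones were with *HOXB*. From the coverage of the bins 0.121 contacts were expected in primed and 0.187 in naive PSCs, so the observed number was 140 (81.6 to 224) and 10.7 (1.30 to 38.7) times the expected one. The ratio of primed over naive was 13.1 (3.11 to 117). No contact with *HOXD* was seen, which with 0.0186 expected in primed PSCs allows up to 199 times the expected number. With *TBX3*, the first *HOXC* bin had 4 and the second 2 contacts in the primed library, where pairs at that distance held a mean of 0.132 and 0.133 contacts. With *LHX5* the first bin had 3, where the mean was 0.120. In the naive file 6 of 7865 bin pairs of chromosome 12 at about the distance of *TBX3* were listed, against 904 of 7821 in the primed file, so these pairs were not compared.

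The other *HOX* clusters were counted in the same way. Interactions with both ends inside the cluster numbered 0 in naive and 18 in primed PSCs for *HOXA*, 2 and 74 for *HOXB* and 0 and 6 for *HOXD*, beside 1 and 43 for *HOXC*. Interactions over 1 Mb numbered 0 and 52 for *HOXA*, 0 and 10 for *HOXB* and 12 and 114 for *HOXD*, beside 0 and 10 for *HOXC*. The total was lower in primed than in naive PSCs for *HOXC* alone, with 104 and 226 for *HOXA*, 174 and 237 for *HOXB*, and 170 and 292 for *HOXD*. No test of these differences between clusters was possible. Among baits outside the cluster, that of *SMUG1* at chr12:54186661-54189296 had the set of partners most like that of the *HOXC* baits, with a Jaccard index (shared over all partners) of 0.139 in naive and 0.224 in primed PSCs. The *GPR84* bait followed in naive PSCs with 0.134. Fragments of the cluster itself counted among the partners. In primed PSCs 13 of the 13 partners of the *SMUG1* bait were shared, and 11 of its interactions were with the cluster. Its primed index thus mostly restates contacts with the cluster and inside it, and was not compared with the naive one.

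H3K4me1 was compared along the cluster as the mean of the tiles on each fragment. Of the 21 fragments, 18 held the middle of a tile and 17 passed the filter on low values. Of these 17, 3 were higher in naive and 1 in primed PSCs (limma, Benjamini-Hochberg adjusted p under 0.05). Over all 154455 fragments tested 25.5% were higher in naive and 26.4% in primed PSCs, so the cluster had no excess of changed fragments. The median difference of the 17, primed minus naive, was -0.20 log2 against 0.01 over all fragments.

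The 3 fragments that were higher in naive PSCs lay next to each other, from *HOTAIR* to *HOXC-AS3*. The fragment chr12:53963318-53968641, over *HOTAIR*, was at -0.18 and 0.11 log2 RPM in the naive and at -1.60, -1.20 and -2.05 in the primed libraries. The difference, primed minus naive, was -1.58 ± 0.37 log2 (SE, limma adjusted p = 0.00270). The fragment of *HOXC11* was at 0.16 and 0.06 in the naive and at -1.18, -1.23 and -1.59 in the primed libraries, a difference of -1.44 ± 0.36 (SE, limma adjusted p = 0.00405). The fragment of *HOXC-AS3*, chr12:53980921-53984487, was at 0.42 and 0.74 in the naive and at -0.99, -0.90 and -0.76 in the primed libraries, a difference of -1.47 ± 0.38 (SE, limma adjusted p = 0.00484). In each of the 3 every naive library was above every primed library, by more than the spread among replicates. With the highest tile of a fragment in place of the mean, none of the 3 passed the threshold. *HOXC-AS3* also lost its call without naive replicate 2, and *HOXC11* with the replicate block. *HOXC12*, next to this stretch, was at -0.44 and -0.03 in naive and at -0.79, -1.23 and -1.20 in primed libraries, without overlap but past no threshold (limma adjusted p = 0.0693).

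The fragment that was higher in primed PSCs was the last one, chr12:54049003-54054725, with the downstream start of *HOXC4*. It was at -1.98 and -1.43 in the naive and at -0.19, -0.79 and -0.16 in the primed libraries, a difference of 1.33 ± 0.37 (SE, limma adjusted p = 0.00865). This is the fragment that 9 of 9 baits were listed with in primed PSCs. The difference did not pass the threshold without naive replicate 1, with the replicate block or with the highest tile. The baits of *HOXC13*, *HOXC10*, *HOXC9*, *HOXC8* and both baits with *HOXC4* passed no threshold, with differences from -0.32 for *HOXC13* to 0.15 for the distal *HOXC4* start.

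At the scale of single tiles, 97 of the 246 tiles of the cluster passed the filter, and 19 were higher in naive and 6 in primed PSCs (limma, adjusted p under 0.05). Over all 465122 tiles tested the shares were 26.1% and 26.0%. The 25 called tiles were not spread evenly. From chr12:53976501 to 53983500, a stretch of 7 kb from the 3′ end of *HOXC11* to *HOXC-AS3*, 12 tiles were higher in naive PSCs, with a median difference of -2.60 log2. A further 3 neighbouring tiles and 1 at 53966501 lay over *HOTAIR*, 2 from 53953001 to 53954000 upstream of *HOXC12*, and 1 at 53998001 within *HOXC6* and *HOXC9*. Without naive replicate 1 the tiles higher in naive PSCs numbered 8, and without naive replicate 2 they numbered 12. Among the tiles with the largest changes, those at 53980501 and 53980001 between *HOXC11* and *HOXC-AS3* changed by -3.02 and -2.81 log2. Those at 53977501 and 53977001 over the 3′ exon of *HOXC11* changed by -2.86 and -2.85 log2. Tiles were named only where the libraries did not overlap, so that separation was set by the choice. The filter could be met by the 2 naive libraries alone, the group in which these tiles were called higher. These 4 stayed past the threshold under every alternative run.

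The tiles that were higher in primed PSCs lay at the *HOXC4* end, except for 1 at 53945501 over the 3′ exon of *HOXC13*. The tile chr12:54051001-54051500 in an intron of *HOXC4* was at -2.86 and -0.43 in the naive and at 0.94, 0.60 and 0.17 in the primed libraries, a difference of 2.22 ± 0.68 (SE, limma adjusted p = 0.0130). Both naive values were under 0, so this tile passed the filter through the primed libraries alone, the group in which it was called higher. The naive libraries differed widely here, by more than the gap between the higher of them and the lowest primed library. The tiles at 54053001 and 54048001 in *HOXC4* and at 54034501 over an exon of *HOXC5* changed by 1.75, 1.65 and 1.57 log2. Each of the 5 tiles named here lost its call without at least 1 of the libraries. Of 21 annotated *HOXC* transcript starts, 14 lay in a tile that was tested, and none of these passed the threshold. Several of the 14 starts shared a tile, among them those of *HOXC10*, so fewer separate tiles were tested. The other 7 were removed by the filter, among them the start of *HOXC12*, at -0.28 and 0.05 in naive and at -2.15, -1.98 and -1.73 in primed libraries, without overlap but not tested. The tile with the start of *HOXC13* was at 1.11 and -0.17 in naive and at 0.85, 0.83 and 0.69 in primed libraries, and that of *HOXC5* at 0.31 and 0.71 against 0.94, 0.72 and 1.02, so the cell types overlapped at *HOXC13*.

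**Figure D5:**
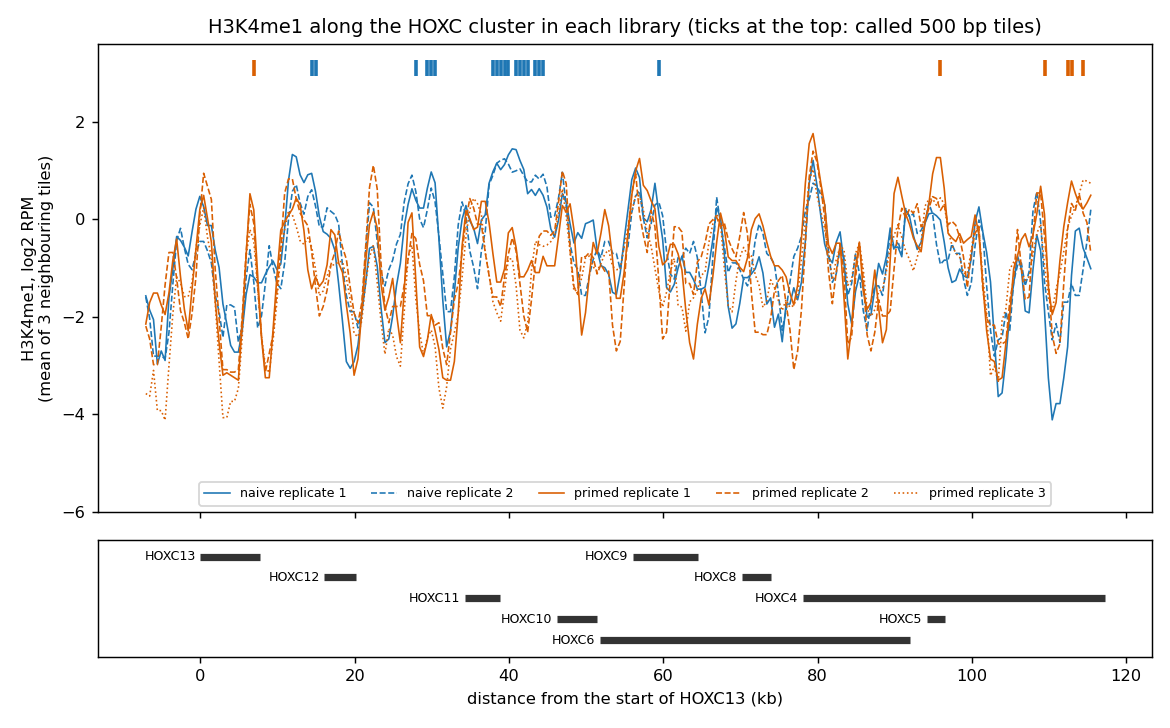
H3K4me1 (log2 RPM, mean of 3 neighbouring tiles of 500 bp) along the *HOXC* cluster in the 2 naive and 3 primed libraries, by distance in kb from the start of *HOXC13*, with the genes underneath. Ticks at the top mark the tiles called as higher in naive (19) or primed PSCs (6), and the naive libraries stand apart over *HOTAIR* and from the 3′ end of *HOXC11* to *HOXC-AS3*, but not at the start of *HOXC11* between them.

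H3K4me1 was also compared at the partners outside the cluster. Of the 65 partners 34 passed the filter, and 11 were higher in primed and 1 in naive PSCs (limma, adjusted p under 0.05). This is beside 26.4% and 25.5% of all fragments. The number higher in primed PSCs was close to that background, while the 1 of 34 higher in naive PSCs was far below it. The median difference was 0.29 log2. Of the 17 tested partners that both cell types listed, 7 were higher in primed PSCs and 0 in naive PSCs. Of the 10 listed in naive PSCs only, 1 was higher in naive and 1 in primed PSCs. Of the 7 listed in primed PSCs only, 3 were higher in primed PSCs. The number of partners higher in primed PSCs fell to 4 without naive replicate 1.

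The largest change was at *CISTR*. Its fragment chr12:53746136-53756898 was at -2.13 and -1.60 log2 RPM in the naive and at 1.17, 0.88 and 1.16 in the primed libraries, a difference of 2.94 ± 0.39 (SE, limma adjusted p = 4.53e-05). All 3 primed libraries were far above both naive ones. The cluster had 4 naive and 6 primed interactions with this fragment, while block B as a whole had fewer in primed PSCs. Another fragment of block B, chr12:53779434-53783319, was at -3.55 and -2.45 in naive and at -0.80, -1.36 and -0.85 in primed libraries, a difference of 2.00 ± 0.36 (SE, limma adjusted p = 0.000457). The fragment with the highest score of *HOXC13* held 1 tile and did not pass the filter, with values from -3.30 to -2.12 log2 RPM over the 5 libraries. In naive replicate 2 and primed replicates 1 and 2 the value was that of an empty tile, which depends on depth. Its H3K4me1 was therefore not compared.

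On the telomeric side, *FLJ12825*, next to the cluster, was at -2.67 and -2.29 in naive and at -0.01, -0.28 and -0.42 in primed libraries, a difference of 2.24 ± 0.34 (SE, limma adjusted p = 0.000119). Together with the last fragment of the cluster it made a stretch that was higher in primed PSCs. The fragment chr12:54350444-54357184, with a start of *GPR84-AS1*, was at -1.19 and -0.96 in naive and at 1.29, 0.73 and 1.07 in primed libraries, a difference of 2.10 ± 0.39 (SE, limma adjusted p = 0.000532). In block E the fragments starting at 54131651 and 54156146 were 1.59 and 1.60 log2 higher in primed PSCs, and both lost their call without naive replicate 1. The partner with the highest score, chr12:54189297-54197483, was at -0.50 and -0.98 in naive and at -1.50, -0.65 and -0.70 in primed libraries, and the groups overlapped (limma adjusted p = 0.681). The 1 partner called higher in naive PSCs was a fragment of *ZNF385A*, with a difference of -1.16 log2, and it lost its call without naive replicate 1, without primed replicate 1, with the replicate block and with the highest tile. Of the long-range partners, *LHX5* was higher in primed PSCs by 1.41 log2, a call lost without either naive replicate, and the *TBX3* bait was at 0.23 and 0.49 in naive and at 0.79, 0.27 and 0.52 in primed libraries, where the groups overlapped (limma adjusted p = 0.744).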

How the data were processed

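PCHi-C and Hi-C of naive and primed PSCs and H3K4me1 CUT&RUN of 2 naive and 3 primed libraries were used. The libraries were grouped by their labels. The other 6 libraries (NANOG, SOX2 and input) were not used. The methods call the CUT&RUN libraries biological replicates. As the labels do not state separate cultures, p-values measure the spread between these libraries, which may be technical.

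For PCHi-C, the authors mapped read pairs to GRCh38 with HiCUP, combined 2 replicates within CHiCAGO and deposited pairs with a score of at least 5. The read number beside each score is the combined one, rounded by the authors. Column 4 of the deposited lists holds a strand and no gene names, so members were assigned by position and by GENCODE release 44 starts. All 88413 listed fragments had the ends of a *Hin*dIII fragment computed from GRCh38. Pairs listed from both baits were merged. For Hi-C, the authors deposited the di-tag count of each pair of 100 kb bins without normalisation. The deposited H3K4me1 values are log2 RPM per 500 bp tile, made by the authors in SeqMonk from reads trimmed by Trim Galore (processing notes: 0.4.5, 0.5.0) and aligned by Bowtie2, where an empty tile stands at 0.9 reads.

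A tile was kept when 2 or more libraries exceeded 0 log2 RPM, and a fragment, taken as the mean of its tiles, when 2 or more libraries each had a tile above 0 on it. The libraries of 1 cell type alone could meet this rule, so a call can rest on a tile kept through the group where it is higher. Both were compared over the whole genome with limma 3.58.1 (lmFit, eBayes with trend, R 4.3.3), with Benjamini-Hochberg adjustment and a limit of 0.05. The script was tested on simulated data with 200 changed fragments. It recovered 63% of those changed by 2 log2 and 84% of those changed by 3 log2, with 16 false calls. Only 200 of 154455 fragments were changed there, while 26.4% and 25.5% were called in the data. The adjusted threshold was thus stricter in the simulation, and its figures do not give the recovery or false calls of the real comparison. A fragment that passed no threshold can still differ. Shares have 95% Wilson intervals and Hi-C counts exact Poisson ones, for counting error only. Expected trans contacts came from the product of bin coverages. Named are all genes of the cluster, baited partners, the highest scores, the partners with most baits, all partners over 1 Mb and the 5 tiles with the largest change in each direction among those called and not overlapping, of which 1 is not reported here. Alternatives changed the score and read limits, matching, filter, pseudocount, normalisation, libraries and replicate block. Added after seeing the data was edgeR 4.0.16 on tile reads: 100% of the values under 1000 reads came out within 0.05 of a whole read. The members, gene lists and rules were chosen with earlier results of these data known. Other tools were scipy 1.17.1, matplotlib 3.10.9, pandas 2.3.3, numpy 2.4.6 and Python 3.11.15.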

Additional observations from a re-analysis of the deposited data

How the results depend on the processing

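With a score of at least 7, interactions inside the cluster numbered 0 in naive and 18 in primed PSCs and those over 1 Mb 5 in primed PSCs, and with a score of at least 10 they numbered 0, 5 and 4. At a score of at least 10 the ratio of primed over naive interactions turned to 1.14 (0.708 to 1.85), with at least 10 reads it was 0.777 (0.613 to 0.984), and none of those over 1 Mb had 10 reads. When both ends could lie within 10 kb, 86.5% (naive) and 70.7% (primed) were listed in both. For H3K4me1 the labels give both cell types replicates 1 and 2 but pair nothing, and same-numbered libraries did not deviate together (r = 0.035 and 0.031 over tiles). With the replicate block, cluster fragments higher in primed PSCs numbered 0, cluster tiles higher in primed PSCs 3 and partners higher in naive PSCs 0, and the tiles higher in naive PSCs numbered 13. With the highest tile of a fragment, no cluster fragment was called in either direction (0 and 0), 0 partners were higher in naive PSCs and the difference at the partner chr12:53694832-53702268 turned to -0.20 log2. Leaving out 1 library, cluster fragments ranged from 2 to 4 higher in naive and from 0 to 1 higher in primed PSCs, cluster tiles from 8 to 21 and from 1 to 7, and partners from 0 to 2 (0 without primed replicate 1, 2 without primed replicate 2) and from 4 to 11 (4 without naive replicate 1). The 8 tiles were left without naive replicate 1, 12 without naive replicate 2, and tiles higher in primed PSCs numbered 1 without naive replicate 2 or primed replicate 3 and 2 without primed replicate 1. With edgeR's quasi-likelihood test on tile reads 24 tiles were higher in naive and 6 in primed PSCs, beside 135992 and 131096 over all tiles. The ratio of trans contacts with other *HOX* clusters was 7.79 when scaled by all trans contacts. Of the alternatives for single fragments and tiles, 226 kept their call, 49 lost it and 1 turned. The causes were not tested. Depth of 6740000 to 8850000 reads in 3 of the 5 libraries, and 3 to 5 reads per long-range interaction, limit what these data can show.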
